A study of Mus musculus with 147 samples.

Results

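Blood monocytes of mice that were refed for 2 h after a 12 h fast were compared with those of mice that were fasted for 12 h and not refed. The comparison rests on 17 libraries, 9 refed and 8 fasted, out of 147 libraries of mouse macrophages and monocytes in the series. Libraries were chosen by their labels alone: the sorted population (monocytes), the experiment (fasting and refeeding) and the treatment. Refed and fasted mice were handled in the same 4 cohorts, each with 2 refed and 2 fasted libraries except the fourth, which had 3 refed libraries. By the labels both groups fasted for 12 h and the refed mice then fed for 2 h, so feeding and the added 2 h cannot be told apart. The remaining 93 libraries of the fasting and refeeding experiment came from 6 tissue macrophage populations and enter one comparison only. The labels give no strain, sex or age of the mice and do not name the antibodies of the sort. The labels do not say that each library is a separate mouse, so the p-values measure the spread between these libraries, which may be partly technical.

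Monocytes are short-lived myeloid cells that are made in the bone marrow and circulate in the blood. In mice, classical monocytes carry Ly6C, the product of Ly6c2, together with the chemokine receptor CCR2, and they enter tissues during inflammation. Non-classical monocytes carry little Ly6C, depend on the transcription factor NR4A1 and patrol the vessel wall. Fasting is known to lower the number of circulating monocytes in mice, and fasting hormones, fatty acids and insulin each act through receptors and transcription factors with known target genes. Lists of such targets were therefore read alongside the test across all genes.

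Each library was made from 400 sorted cells with Smart-seq2, a full-length protocol for small samples that amplifies polyA RNA. Counted reads came to between 7915242 and 19904246 in refed libraries and between 15396649 and 18125547 in fasted libraries. Between 12051 and 13307 genes had counts in refed libraries, against 12127 to 13693 in fasted libraries. Mitochondrially encoded genes took 1.98% to 2.87% of the counts in refed libraries and 2.43% to 3.61% in fasted libraries. These shares leave out some mitochondrial messages, since 4 of the 13 protein-coding mitochondrial genes had no count in any monocyte library. Of 136 pairs of monocyte libraries, 0 held identical values. Levels below are in CPM, counts scaled to library depth, after TMM scaling of the libraries (trimmed mean of M values), and are not divided by gene length, so they compare one gene between libraries and not one gene with another.

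The sorted cells carried the monocyte genes that their label calls for. Lyz2, which encodes lysozyme, ranged from 38641 CPM through a median of 67374 CPM to 74375 CPM in refed libraries, against 41932, 59514 and 63364 CPM in fasted libraries. Csf1r, the receptor for the growth factor that monocytes depend on, ranged over 1720, 2274 and 2677 CPM in refed libraries and over 1962, 2466 and 2995 CPM in fasted libraries. Ly6c2 reached 642, 1928 and 2284 CPM (lowest, median and highest) in refed libraries, against 1018, 1768 and 2205 CPM in fasted libraries. All 18 genes of a list common to both monocyte subsets had counts in all 17 libraries.

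Genes of other blood cells also had counts, at levels that differed between cell types. The 12 B cell genes summed to 438, 567 and 733 CPM (lowest, median and highest) in refed libraries and to 386, 600 and 778 CPM in fasted libraries. The 13 T cell genes summed to 0.0511, 152 and 263 CPM (lowest, median and highest) in refed libraries and to 0, 63.8 and 592 CPM in fasted libraries, and 0 of the 13 had counts in every library. Of the 11 tested, 10 had higher and 1 lower values in refed monocytes, with a median log2 change of 0.74. Cd3e, part of the T cell receptor complex, was at 0 in 4 of the 17 libraries. Ly6g, which marks neutrophils, stayed at or below 0.630 CPM in refed libraries and 0.369 CPM in fasted libraries. The 17 neutrophil genes summed to 204, 312 and 454 CPM in refed libraries and to 141, 341 and 489 CPM in fasted libraries. Of these, 3 had counts in all 17 libraries, among them S100a8 at medians of 14.7 CPM in refed and 7.72 CPM in fasted libraries. The 9 erythrocyte genes, led by the globins, summed to 0.912, 310 and 694 CPM in refed libraries, against 35.2, 463 and 1748 CPM in fasted libraries. The 12 dendritic cell genes summed to 319, 808 and 1126 CPM in refed libraries and to 541, 894 and 1340 CPM in fasted libraries. The 12 platelet genes summed to 36.4, 71.5 and 164 CPM in refed libraries and to 1.21, 39.4 and 153 CPM in fasted libraries, and the 4 tested had higher values in refed monocytes, with a median log2 change of 0.83. The groups overlapped in each of these sums, and none of the tested members of these lists passed the test of refeeding. In libraries of pooled cells, fewer cells of a type and less RNA per cell cannot be told apart.

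Refeeding left no gene past the threshold in monocytes. Of 10503 genes with enough counts to test, 0 had an adjusted p below 0.05 with edgeR's quasi-likelihood test and Benjamini-Hochberg adjustment, with the cohort as a term, so the share called was 0%. At an unadjusted p below 0.05 there were 278 genes, which is 2.65% of those tested. They were split into 134 with higher and 144 with lower values in refed monocytes. The median log2 change over all tested genes was -0.02, and 48.2% of the genes lay above 0. DESeq2 on the same genes called 7, or 0.0666%, and limma with voom called 0. Of the 7, 2 were higher and 5 lower in refed monocytes, and only Acer3 had counts in all 17 libraries. The other 6 were Pomgnt1, Cdyl2, Trp53i11, Ksr1, Nid2 and Slc9a3r2, which were listed at 0 in some libraries of at least one group.

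**Figure D1:**
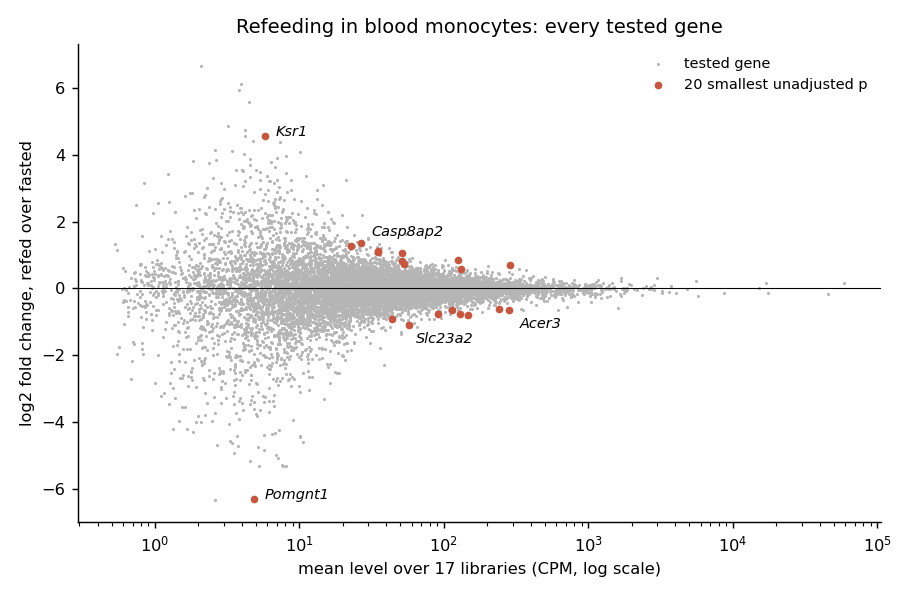
Log2 fold change of refed over fasted monocytes (vertical axis) against the mean level over the 17 libraries in CPM (log scale) for the 10503 tested genes. Grey points are tested genes and red points the 20 genes with the smallest unadjusted p; the scatter narrows towards highly expressed genes, and Acer3 lies at -0.64.

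How closely the change of a gene was bounded depended on its level. For the 94 genes averaging 1000 CPM or more, the 95% interval of the log2 change reached a median of 0.22 to either side, and 98.9% of the intervals lay within 1 log2 unit of 0. For the 1800 genes between 100 and 1000 CPM the median half-width was 0.37, and 95.1% lay within 1 log2 unit. For the 6141 genes between 10 and 100 CPM the half-width was 0.93 and the share was 34.4%, and for the 2468 genes under 10 CPM it was 3.12, with 0.0810% within that bound. Changes in abundant genes were therefore bounded closely, whereas for most low genes the interval reached beyond 1 log2 unit. These intervals hold for single genes and are not adjusted over the genes tested. A change larger than these half-widths could therefore still miss the adjusted threshold. Only 7380 of the tested genes had counts in all 17 libraries.

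The genes that define the monocyte subsets showed no change that passed the test. Ly6c2 had a log2 change of -0.01 (95% interval -0.31 to 0.29), with adjusted p = 1.00 in edgeR's test, as was true of each subset gene named here. Ccr2, which brings monocytes out of the marrow, ranged over 1340, 3087 and 4734 CPM in refed libraries and 1730, 2688 and 3462 CPM in fasted libraries, a log2 change of 0.10 (-0.26 to 0.47). Cx3cr1, the fractalkine receptor, reached 1015, 1672 and 1946 CPM in refed libraries and 1271, 1454 and 2000 CPM in fasted libraries, and its log2 change was 0.04 (-0.24 to 0.32). The refed and fasted libraries overlapped for every one of these genes, and their medians lay close together.

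Genes of non-classical monocytes spread further. Nr4a1, on which that subset depends, ranged over 435, 862 and 2316 CPM in refed libraries and 575, 1071 and 1691 CPM in fasted libraries, with a log2 change of -0.40 (-0.91 to 0.11). Ace, the angiotensin-converting enzyme, ranged over 0, 82.4 and 592 CPM in refed libraries and 45.7, 156 and 328 CPM in fasted libraries (-0.85, interval -2.52 to 0.81). Treml4, a surface receptor of these cells, had a log2 change of -0.51 (-1.59 to 0.58). Refed replicate 5 was the highest library of all 17 for each of these 3 genes. Over the non-classical list, 5 of 19 tested genes were higher and 14 lower in refed monocytes, with a median log2 change of -0.40. Over the classical list 11 of 17 were higher and 6 lower, with a median of 0.13, beside the median of -0.02 over all tested genes. In both lists together 1 gene of 36 reached an unadjusted p below 0.05, beside 2.65% of all tested genes. It was Itgal, the integrin alpha L chain, at -0.37 (-0.70 to -0.04) with 305, 396 and 755 CPM in refed libraries against 415, 573 and 773 CPM in fasted libraries.

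**Figure D2:**
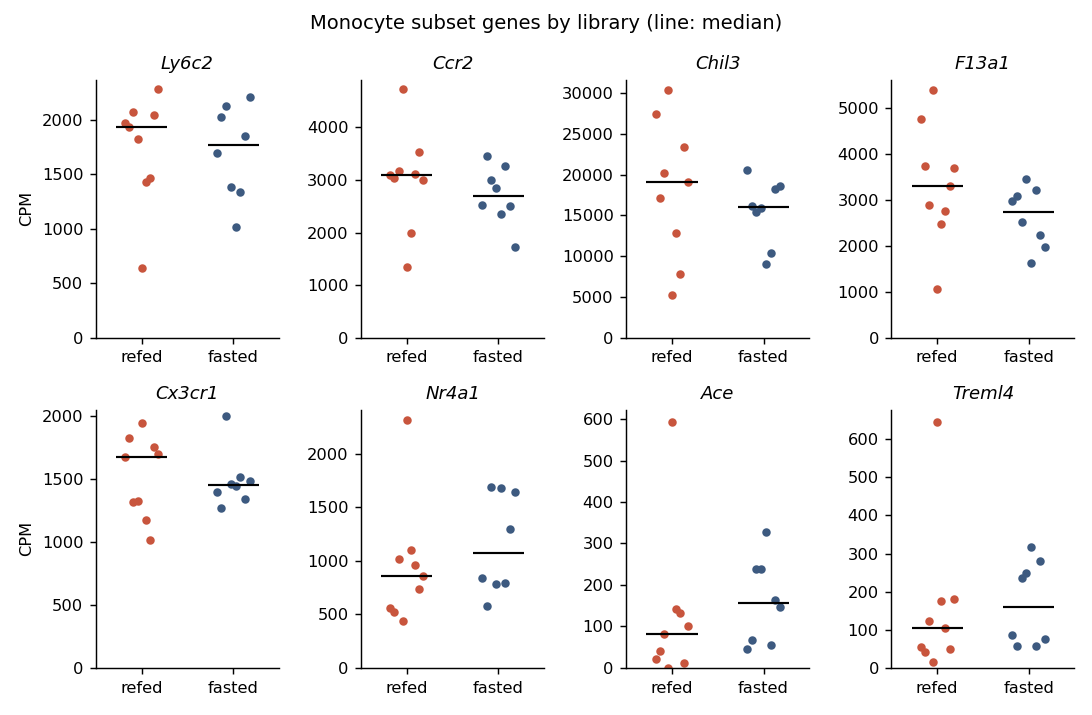
Levels in CPM (vertical axes, from 0) of 8 genes of monocyte subsets in the 9 refed (left) and 8 fasted (right) libraries; lines are medians. Each gene's groups overlap, and 1 refed library lies far above the rest for Nr4a1, Ace and Treml4 and lowest for Ly6c2.

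The balance between the subsets varied more among the refed libraries than between the groups. The log2 ratio of summed non-classical to summed classical genes averaged -2.83 ± 1.02 (SD, n = 9) in refed libraries and -2.53 ± 0.48 (SD, n = 8) in fasted libraries. It ran from -4.07 to -0.49 in refed libraries and from -3.15 to -1.64 in fasted libraries, and an exact two-sided permutation test gave p = 0.483, also after adjustment over the 4 library measures tested. That test shuffled libraries without regard to cohort, and an exact test that shuffled them within cohorts gave p = 0.388 (adjusted 0.460). The extremes were refed replicate 4, with 60011 CPM of classical and 3576 CPM of non-classical genes, and refed replicate 5, with 14167 and 10112 CPM. Without those libraries 0 genes were called. The non-classical list then had 5 genes higher and 14 lower with a median log2 change of -0.46, and 4 of its 19 genes had an unadjusted p below 0.05. The classical list then had 14 higher and 3 lower with a median of 0.18, and 5 of its 17 genes had an unadjusted p below 0.05, beside 335 of 10590 genes tested (3.16%). That choice of libraries was made after their subset balance was seen. Dropping both ends of a balance built from these lists narrows their spread among refed libraries, so these list counts are a description only. With the balance as a covariate 0 genes were called; since it is built from the same lists, their medians in that fit are not given.

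The gene closest to the threshold was Acer3, which encodes alkaline ceramidase 3, an enzyme of the endoplasmic reticulum and Golgi that splits ceramides with unsaturated chains. It lies on the minus strand at chr7:98206389-98321208 (mm10) and was covered by counts in all 17 libraries. Acer3 reached 153, 251 and 306 CPM in refed libraries, against 263, 358 and 389 CPM in fasted libraries. The refed libraries lay lower, but both groups overlapped between 263 and 306 CPM. Its log2 change was -0.64 ± 0.11 (SE; 95% interval -0.88 to -0.41), with an unadjusted p of 2.12e-05 and an adjusted p of 0.222 in edgeR's test, so it was not called. The mean difference of log2(CPM + 1) between refed and fasted libraries was -0.91, -0.79, -0.43 and -0.45 in cohorts 1 to 4, lower after refeeding in each of the 4. DESeq2 called Acer3 with an adjusted p of 0.000463. Over the 33 alternatives tried, its log2 change ran from -0.72 to -0.55 and its adjusted p from 1.52e-07 to 1.00, and every adjusted p below 0.05 came from DESeq2.

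The promoter of Acer3 is shown because this gene stood closest to the threshold. It covers 250 bases before and 50 bases after the annotated start, chr7:98321159-98321458 in GRCm38.p6, on the minus strand and written 5′ to 3′ from RefSeq.
Acer3: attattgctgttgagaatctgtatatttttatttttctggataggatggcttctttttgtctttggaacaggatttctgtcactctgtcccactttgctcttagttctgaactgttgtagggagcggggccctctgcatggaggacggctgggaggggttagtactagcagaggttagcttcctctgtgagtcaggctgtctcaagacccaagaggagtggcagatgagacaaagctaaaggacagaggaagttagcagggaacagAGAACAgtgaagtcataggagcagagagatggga
Capitals mark the 1 match found when the window was searched on both strands for 4 short motifs of factors that respond to feeding state. These were the glucocorticoid receptor half-site AGAACA, the half-site AGGTCA that PPARs and other nuclear receptors share, the FoxO site TGTTTAC and the E-box CACGTG. The match was the glucocorticoid receptor half-site, which 18.97% of all 32851 promoters of that length held. Over the same promoters 16.3% held the nuclear receptor half-site, 3.65% the FoxO site and 7.15% the E-box. Among the 20 genes with the smallest p, 16 had a promoter entry, and 4, 4, 1 and 2 of these held the 4 motifs in that order at any listed start. A match is a run of letters and not a shown binding site, and no factor was measured at these promoters.

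The genes next to Acer3 in order of p did not pass the test (adjusted p = 1.00 each, edgeR). St3gal1, a sialyltransferase that caps sugar chains, had 57.6, 92.3 and 122 CPM in refed libraries and 116.2, 149 and 220 CPM in fasted libraries, a log2 change of -0.75 ± 0.18 (SE). Pitpnm1, a phosphatidylinositol transfer protein, had 134, 194 and 270 CPM in refed libraries and 188, 303 and 391 CPM in fasted libraries (-0.61 ± 0.16). Slc23a2, a sodium-dependent vitamin C transporter, had 10.2, 35.8 and 75.6 CPM in refed libraries and 39.2, 82.7 and 119.5 CPM in fasted libraries (-1.09 ± 0.31). For all 3 the refed libraries lay mostly below the fasted ones, with some overlap, and the mean was lower in each cohort. Glul, which encodes glutamine synthetase, had 41.9, 97.9 and 128 CPM in refed libraries and 111.2, 138 and 187 CPM in fasted libraries, a log2 change of -0.63 ± 0.18. Exons of annotated genes on the other strand overlap those of Glul, Pomgnt1, Naa35, Prpf31, Cyb5r3 and Ksr1, and of Ace, Cx3cr1, Pdia6, Nfkb2, Slc2a1, Txnip, Irs2, Il1b, Rbm3, Dbp and Nr1d1. Smart-seq2 does not mark strand, so reads of such pairs cannot be told apart.

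Other genes among the 20 with the smallest p had higher values in refed monocytes, again without passing the test. Washc4, a subunit of the WASH complex that builds actin on endosomes, had 102.04, 154 and 223 CPM in refed libraries and 35.02, 80.1 and 143 CPM in fasted libraries (0.85 ± 0.25). Myo7a, an unconventional myosin, had 25.4, 44.4 and 69.1 CPM in refed libraries and 6.09, 21.6 and 40.8 CPM in fasted libraries (1.09 ± 0.32). Usp19, a deubiquitinase, had 86.3, 156 and 224 CPM in refed libraries and 37.6, 118.5 and 150 CPM in fasted libraries (0.58 ± 0.18). Abca9, an ABC transporter, had 180, 344 and 663 CPM in refed libraries and 82.6, 238 and 294 CPM in fasted libraries (0.71 ± 0.23). Each of these sets of libraries overlapped, and each mean was higher after refeeding in all 4 cohorts. For Washc4 the difference of log2(CPM + 1) in cohort 3 was only 0.000456, against 1.46, 1.67 and 0.47 in cohorts 1, 2 and 4.

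Of the 20 genes with the smallest p, 11 were higher and 9 lower in refed monocytes, and 18 had counts in every library. All of their cohorts pointed one way in 19 of the 20, against 12.5% of all tested genes, but these 20 were chosen by the same contrast, so that share is a description only. The others with higher values were Ccdc186, Naa35, Prpf31, Auh, Ksr1, Chmp7 and Casp8ap2. Chmp7 is part of the ESCRT machinery, Prpf31 of the spliceosome, and Auh acts in leucine breakdown. Others with lower values were Chd6, a chromatin remodeller, Cyb5r3 and Pomgnt1. Pomgnt1, which extends sugar chains on dystroglycan, was listed at 0 in most refed libraries (highest 7.12 CPM), against a median of 7.40 and a highest value of 27.98 CPM in fasted libraries. Ksr1, a scaffold of the Raf pathway, had a median of 12.0 CPM in refed libraries and 0.467 CPM in fasted libraries.

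**Figure D3:**
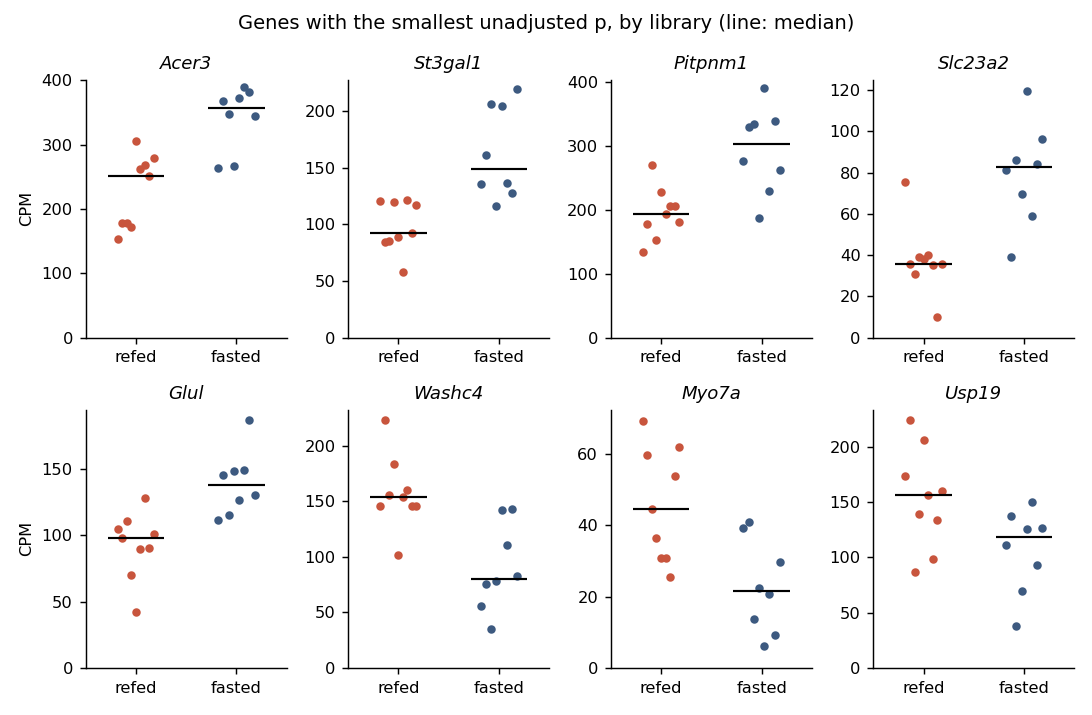
Levels in CPM (vertical axes, from 0) of 8 of the 20 genes with the smallest unadjusted p in each refed (left) and fasted (right) monocyte library; lines are medians. Acer3, St3gal1, Pitpnm1, Slc23a2 and Glul lie lower and Washc4, Myo7a and Usp19 higher in refed libraries, and the groups overlap in each panel.

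Across the 10503 genes, 1 gene had refed and fasted libraries that did not overlap, which is 0.00952%. This was Peak1, a pseudokinase of the cytoskeleton, named here after its values were seen. It had 0, 21.95 and 34.7 CPM in refed libraries and 41.8, 57.97 and 65.8 CPM in fasted libraries. Its log2 change was -1.79 ± 0.68 (SE), with an unadjusted p of 0.0178 and an adjusted p of 1.00 in edgeR's test.

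Genes of fasting metabolism showed no called change. Of 30 tested genes of fatty acid oxidation and PPAR targets, 8 were higher and 22 lower in refed monocytes, with a median log2 change of -0.20 beside -0.02 over all genes. Of these, 2 had an unadjusted p below 0.05, and the share over all tested genes was 2.65%. These were Lpl, lipoprotein lipase, at 0.58 ± 0.25 (SE), and Acaa2, a thiolase of mitochondrial oxidation, at -0.44 ± 0.21. Cpt1a, which moves long-chain fatty acids into mitochondria, had 76.7, 209 and 414 CPM in refed libraries and 74.02, 288 and 449 CPM in fasted libraries, a log2 change of -0.19 (-0.87 to 0.49). Plin2, a coat protein of lipid droplets, had 186, 269 and 665 CPM in refed libraries and 198, 533 and 713 CPM in fasted libraries (-0.49, interval -1.07 to 0.09). The refed median of Plin2 was the lower one, but libraries of both groups reached both ends of its range. Pdk4 and Angptl4, classic PPAR targets of the fasted state, had too few counts to test, at no more than 0.378 and 0.244 CPM in refed libraries and 0.168 and 2.58 CPM in fasted libraries.

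Insulin and the FoxO factors act in opposition, and of 33 tested genes of that list 11 were higher and 22 lower, with a median log2 change of -0.16 and 0 at an unadjusted p below 0.05. Txnip, a glucose-responsive regulator of glucose uptake, had 384, 486 and 758 CPM in refed libraries and 510, 622 and 784 CPM in fasted libraries (-0.23, interval -0.53 to 0.07). Irs2, an insulin receptor adaptor that FoxO induces, was low, with a highest value of 26.8 CPM in refed and 14.96 CPM in fasted libraries. Of 24 genes of glycolysis and glucose uptake, 11 were higher and 13 lower with a median of -0.01, so the list lay at the median of all genes. Slc2a1, the glucose transporter GLUT1, had 37.7, 58.03 and 69.02 CPM in refed libraries and 7.18, 34.2 and 58.7 CPM in fasted libraries (0.70, interval -0.06 to 1.47). Hk2, a hexokinase, differed by 0.55 (-0.15 to 1.24).

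Sterol and fatty acid synthesis, driven by SREBP factors, is usually higher in fed tissue. Of 27 tested genes 16 were higher and 11 lower in refed monocytes, with a median log2 change of 0.06. Acly, which supplies acetyl-CoA for both pathways, was the 1 member with an unadjusted p below 0.05. It had 263, 360 and 435 CPM in refed libraries and 193, 295 and 384 CPM in fasted libraries, a log2 change of 0.30 ± 0.12 (SE). Of 10 genes of cholesterol efflux 4 were higher and 6 lower, with a median of -0.02. Of these, Abcg1 was at 0.70 (0.04 to 1.37) and Abca1 at 0.90 (-1.09 to 2.88).

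Fasting raises corticosterone in mice, and 24 genes of a list of the glucocorticoid receptor gene Nr3c1 and targets of the receptor were tested. Of these 6 were higher and 18 lower in refed monocytes, with a median log2 change of -0.22 and 0 at an unadjusted p below 0.05. Tsc22d3, which encodes the glucocorticoid-induced leucine zipper, had 133, 402 and 778 CPM in refed libraries and 301, 429 and 652 CPM in fasted libraries (-0.14, interval -0.64 to 0.37). Fkbp5, a co-chaperone of the glucocorticoid receptor, differed by -1.07 (-2.72 to 0.57) at a median of 11.8 CPM in refed and 31.9 CPM in fasted libraries. Per1, a clock gene that the same receptor induces, differed by -0.29 (-1.17 to 0.59). Without refed replicates 4 and 5 the list had 9 genes higher and 15 lower, with a median of -0.10. Among 11 tested clock genes 6 were higher and 5 lower. The clock outputs Dbp and Nr1d1 had too few counts to test.

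Receptors and adhesion molecules of marrow homing lay near the median of all genes. Of 20 tested genes 9 were higher and 11 lower, with a median log2 change of -0.08. Cxcr4, the receptor that retains leukocytes in the marrow, was low, with 1.90, 3.61 and 22.1 CPM in refed libraries and 2.41, 5.78 and 14.9 CPM in fasted libraries. Its interval of -1.774 to 1.203 on the log2 scale leaves large changes in either direction possible. Selplg, the ligand of selectins, was measured more closely and differed by -0.15 (-0.34 to 0.04).

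Of 27 tested genes of the unfolded protein response 18 were higher and 9 lower in refed monocytes in the main fit. The median log2 change was 0.07, and none was called. Pdia6, a disulphide isomerase, had 203, 348 and 522 CPM in refed libraries and 201, 229 and 348 CPM in fasted libraries, a log2 change of 0.43 ± 0.17 (SE) and the only unadjusted p below 0.05 in the list (0.0228). Calr, the chaperone calreticulin, differed by 0.37 (-0.00 to 0.75), and Hspa5, which encodes BiP, by 0.27 (-0.14 to 0.69). Refed replicate 4 was the highest library for Calr and Hspa5, and without refed replicates 4 and 5 the list had 15 genes higher and 12 lower, with a median of 0.03. With the subset balance as a covariate it had 13 higher and 14 lower. Of 20 heat shock genes 14 were higher and 6 lower, with a median of 0.13. Hspa8, the constitutive cytosolic chaperone, had 1053, 1299 and 1636 CPM in refed libraries and 833, 1140 and 1842 CPM in fasted libraries (0.16, interval -0.15 to 0.46). The cold-inducible RNA-binding genes Cirbp and Rbm3 differed by -0.54 (-1.55 to 0.46) and -0.42 (-0.87 to 0.04).

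Of the lists of monocyte subsets and responses, that of antigen presentation had the median farthest from that of all genes. Of 11 tested MHC class II genes 1 was higher and 10 lower in refed monocytes, with a median log2 change of -0.57, and 0 had an unadjusted p below 0.05. The exception was H2-Ob, an accessory chain, at 1.28 ± 1.54 (SE). Cd74, the invariant chain, had 142, 1193 and 4070 CPM in refed libraries and 571, 1686 and 5252 CPM in fasted libraries, a log2 change of -0.58 (-1.37 to 0.21). H2-Aa, the alpha chain of I-A, had 27.8, 443 and 1535 CPM in refed libraries and 170, 704 and 2097 CPM in fasted libraries (-0.65, interval -1.58 to 0.28). Summed over the list, the highest libraries were refed replicate 5 at 9414 CPM and fasted replicate 5 at 12188 CPM. The lowest were refed replicate 4 at 437 CPM and fasted replicate 4 at 1368 CPM. The dendritic cell genes, which had 2 higher and 9 lower of 11, lay in the same direction with a median of -0.23, and their part in the class II values was not tested. With the subset balance as a covariate the MHC class II median was -0.35, and without refed replicates 4 and 5 it was -0.52. When genes with a count in any library were tested, edgeR called Cd74, H2-Aa and H2-Ab1 lower (adjusted p = 0.000469, 0.00895 and 0.0361). It also called Itgax and the sparse genes Itm2a and Rdh12. Itgax had counts in 16 libraries, with medians of 9.04 CPM in refed and 40.03 CPM in fasted libraries. On the main filter its log2 change was -2.29 ± 0.98 (SE), with an unadjusted p of 0.0330 in edgeR's test, and it was not called. For Cd74, H2-Aa and H2-Ab1 the log2 changes were -0.58, -0.65 and -0.57 with either filter. On the main filter edgeR's test gave them unadjusted p-values of 0.141, 0.159 and 0.218, and DESeq2 gave 0.117, 0.179 and 0.246. With genes counted in any library, the median prior degrees of freedom in edgeR's fit were infinite, so the spread of the median gene was pooled fully over genes. Whether this set the class II calls was not tested.

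Inflammatory genes did not separate the groups. Of 26 tested genes of the NF-kB list 12 were higher and 14 lower, with a median log2 change of -0.03. Il1b, which encodes interleukin-1 beta, had 4.69, 23.2 and 72.1 CPM in refed libraries and 4.61, 26.7 and 47.05 CPM in fasted libraries (0.12, interval -1.09 to 1.32). Interferon-stimulated genes were 19 higher and 20 lower of 39. Toll-like and pattern receptors were 4 higher and 16 lower of 20, with a median of -0.25. Tlr7, a sensor of single-stranded RNA, differed by -0.60 (-1.47 to 0.26) and Clec7a, the receptor dectin-1, by -0.24 (-0.58 to 0.10). None of these members had an unadjusted p below 0.05 except Nfkb2, a subunit of NF-kB, at 0.36 ± 0.17 (SE).

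Protein synthesis and respiration genes were measured most closely. Of 72 cytosolic ribosomal protein genes 15 were higher and 57 lower, but the median log2 change was -0.06, and without refed replicates 4 and 5 it was -0.02 with 29 higher and 43 lower. The ribosomal share of counts averaged 2.35 ± 0.25% in refed libraries (SD, n = 9) and 2.42 ± 0.13% in fasted libraries (SD, n = 8), with p = 0.451 in an exact two-sided permutation test and 0.460 within cohorts. Rpl34 had the smallest p of the list, at -0.20 ± 0.09 (SE) and an unadjusted p of 0.0489 in edgeR's test. Of 48 nuclear genes of oxidative phosphorylation 25 were higher and 23 lower, with a median of 0.00 and all values between -0.31 and 0.37. The 7 tested mitochondrially encoded genes were all lower in value, with a median of -0.16, and their share of counts gave p = 0.220 in the exact permutation test and 0.168 within cohorts. Integrated stress response genes were 11 higher and 11 lower of 22, and lysosome and autophagy genes 19 higher and 18 lower of 37.

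**Figure D4:**
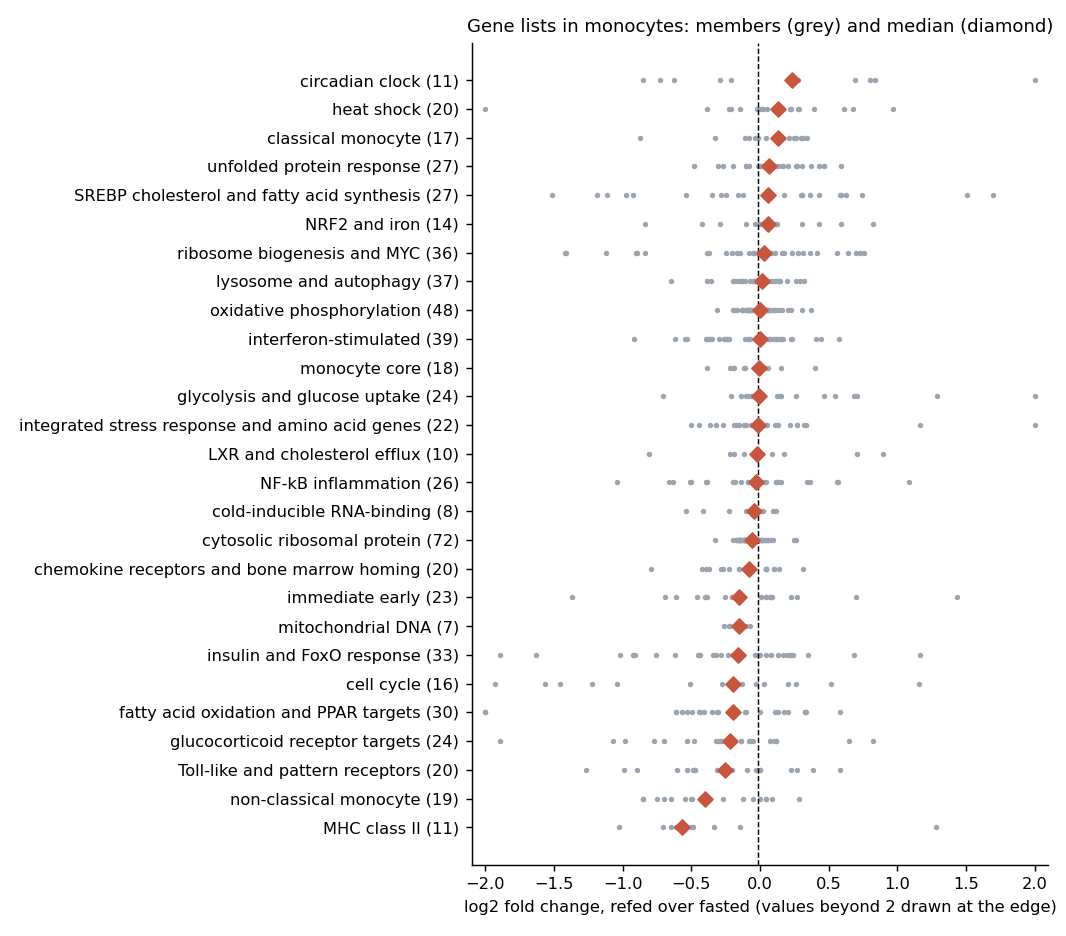
Log2 fold change of refed over fasted monocytes for the tested members of 27 gene lists (grey points) and each list's median (red diamond); the dashed line is the median of all tested genes, -0.02, and the number tested is in brackets. MHC class II has the lowest median, -0.57, and circadian clock the highest, 0.24, and no member of any list was called.

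The refeeding effect in monocytes was also set against the mean effect in the 6 tissue macrophage populations: adipose, colonic, islet and peritoneal macrophages, Kupffer cells and microglia. In one fit over 110 libraries and 18640 genes, 0 genes differed at an adjusted p below 0.05 in edgeR's test (0%), and 700 had an unadjusted p below 0.05. So no gene was shown to respond in monocytes differently from the tissue macrophages in that fit. Libraries of different populations with the same number may come from the same mouse, and the fit treated them as independent. limma with voom called 7, of which 2 were higher and 5 lower in monocytes, and leaving out the cohort gave 85. Acer3 had a log2 change of -0.66 in monocytes in this fit, and values of 0.13 in adipose, 0.23 in colonic, 0.16 in islet and 0.14 in peritoneal macrophages, -0.02 in Kupffer cells and 0.23 in microglia. The difference between monocytes and the mean of the other populations was -0.80 ± 0.23 (SE), with an unadjusted p of 0.000963 and an adjusted p of 0.513 in edgeR's test. Acer3 was chosen by its small p in these same monocyte libraries, so its difference and unadjusted p are a description only. On the scale of that fit Acer3 averaged 199 ± 51.5 CPM in refed and 303 ± 46.6 CPM in fasted monocytes (SD, n = 9 and n = 8). In Kupffer cells it averaged 250 ± 55.6 CPM in refed and 246 ± 48.8 CPM in fasted libraries.

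**Figure D5:**
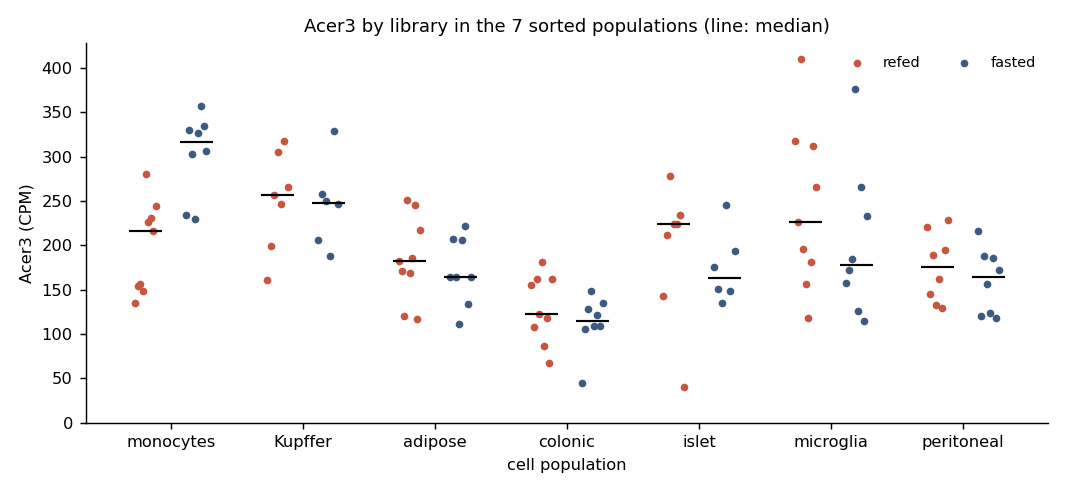
Acer3 in CPM (vertical axis, from 0) in every refed (red, left) and fasted (blue, right) library of the 7 sorted populations of the experiment; lines are medians. Refed monocytes lie mostly below fasted ones, at medians of 216 and 316 CPM, and in each tissue macrophage population the groups overlap widely.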

How the data were processed

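The deposited table holds raw read counts per gene that the authors made. Per the submitters' processing notes, reads were handled with Trimmomatic 0.36, STAR 2.5.1a and featureCounts on mm10; these notes do not say whether strand was used. The table has 50686 gene IDs, of which 50376 were given a symbol, chromosome and exons from the GENCODE M21 annotation. The 17 monocyte libraries were grouped by their labels and fitted with edgeR 4.0.16 (quasi-likelihood F test, robust, TMM scaling, filterByExpr) on cohort and treatment in R 4.3.3, and genes with a Benjamini-Hochberg adjusted p below 0.05 over all tested genes were called. Standard errors are the log2 change divided by the square root of F, and intervals are at 95%. A second fit over 110 libraries, with cohort within population, tested the monocyte effect minus the mean effect of the other 6 populations. Alternatives were DESeq2 1.42.0, limma 3.58.1 with voom and sample weights, other scalings and filters, left-out libraries and cohorts, and the replicate number as a block. The fits were checked on simulated counts. Library measures were compared by exact permutation tests over 24310 arrangements, and within cohorts over 2160, added after seeing the data.

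The members and the 37 gene lists were chosen with earlier results of these data known, so no list is independent support. Genes are named by rule: the 20 with the smallest p, since 0 were called, the 2 with the smallest p in each of 24 response lists, and 26 fixed genes, of which 4 had too few counts to test. Other named list members, subset genes, defining cell markers and the genes called by an alternative were named after their values were seen. A subset balance above is the log2 ratio of summed marker CPM. Promoter sequences come from RefSeq (GRCm38.p6). A few genes that the naming rule selects are not reported here.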

Additional observations from a re-analysis of the deposited data

Results flagged for a closer look

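Values of the 87 named and tested genes were screened in both groups for a library whose distance to its nearest neighbour was large against the whole range of its group (above the 95% critical value of Dixon's ratio). In independent, normally distributed values chance gives such a library in about 1 in 20 groups. CPM are skewed and genes vary together, so that rate does not carry over to the 18 values flagged in 174 groups, of which 18 stood at the high end. Some libraries were flagged for more than 1 gene.

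Refed replicate 5 stood above the other refed libraries for 4 genes. It had 592 CPM of Ace, 646 CPM of Treml4, 2316 CPM of Nr4a1 and 156 CPM of Cyb5r3, where the next refed library had 143, 182, 1103 and 84.1 CPM. The first 3 are genes of non-classical monocytes, whose summed level was also highest in that library. Refed replicate 4 stood above the others for the chaperones Hspa5 (1217 CPM) and Calr (650 CPM), where the next had 732 and 450 CPM. Refed replicate 1 was high for Slc23a2 (75.6 CPM) and for Pomgnt1 (7.12 CPM), refed replicate 3 for Chd6 (56.004 CPM), refed replicate 6 for Cxcr4 (22.1 CPM) and refed replicate 9 for Abca1 (64.1 CPM).

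Among fasted libraries, replicate 8 was high for Abca1 (71.04 CPM), Akt2 (90.1 CPM) and mt-Nd4 (707 CPM). Fasted replicate 3 was high for Cx3cr1 (1999.7 CPM, where the next had 1518 CPM), and fasted replicate 5 for Cirbp (172 CPM, where the next had 68.3 CPM). Fasted replicate 6 was high for Hk2 (131 CPM) and fasted replicate 7 for Nfkb2 (163 CPM). What sets these libraries apart was not tested.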

How the results depend on the processing

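The count of 0 called genes in monocytes held with DESeq2's size factors, with total counts only, with a filter on genes seen in at least 0.5 of the libraries, with limma, without the cohort term, without each cohort, without refed replicates 4 and 5, and with the subset balance as a covariate; the last 2 were chosen after seeing the data. Leaving out each library in turn gave 0 to 1 called genes, the 1 being Rdh12, without fasted replicate 8. Testing every gene with a count in any library gave 6, all lower. The median prior degrees of freedom in edgeR's fit there were infinite, so the spread of the median gene was pooled over genes fully. Whether this held for the 6 called genes was not checked. DESeq2 gave 7, and 14 and 399 on genes with counts in at least 0.5 and in any of the libraries, both added after seeing the data; of these, 6, 13 and 382 lacked counts in some library. Replicate numbers did not pair the libraries: same-numbered residuals correlated at -0.02 to 0.05, with 0 of 8 pairs over 0.1. With the replicate block in place of the cohort, 0 genes were called in monocytes and 0 in the comparison with the other populations, which gave 7 with limma and 85 without the cohort term, and 0 with DESeq2's size factors or the stricter filter. The cause of these differences was not tested.

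Of 2869 gene values under 33 alternatives, 2848 stayed on their side of the threshold and 21, all with DESeq2, passed it in the same direction. The sign changed in 46, in 11 of 87 genes, each time without an unadjusted p below 0.05. Intervals were widest for genes under 100 CPM.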
